A study of Rattus norvegicus with 18 samples.

Results

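Gene expression in the brain cortex was compared between 3 rats with cerebral ischemia given saline and 3 sham-operated rats, both 2 h after the operation. These 6 arrays were taken by their labels from a series of 18, which also holds ischemic rats given erythropoietin and a second time point of 6 h. All rats were males of the Crl:CD(SD)BR strain weighing 250 to 280 g, and their age is not given in the sources used here. Ischemia was made by middle cerebral artery occlusion (MCAO), which blocks the vessel feeding much of the lateral cortex. The treatment is labelled as saline for the ischemic rats and as none for the sham rats, and the labels do not say whether sham rats were also injected. The labels do not say how long the vessel was blocked, or how near to the infarct the cortex was taken. RNA of each rat was spiked with 10 viral transcripts of known amount, labelled with Cy3 and hybridized to its own array of 41012 rat probes.

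When blood flow to cortex fails, neurons lose their energy supply, depolarize and release glutamate, and the calcium that enters switches on immediate-early genes, which need no new protein to be transcribed. Many of these genes encode transcription factors, and others encode phosphatases and RNA-binding proteins that shut the same signals off again. Misfolded protein switches on heat shock genes through HSF1, and microglia, endothelium and astrocytes respond with chemokines and cytokines, largely through NF-kB. In bulk tissue, fewer cells of a type and less RNA per cell cannot be told apart.

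A level below is the log2 processed signal of a probe minus the 75th percentile of its array, and a change is the mean level in ischemia minus that in sham, ± the standard error of the fit. Levels of different probes are not comparable with each other. Between 61.6% and 80.6% of probes were well above background in the ischemic arrays and between 68.6% and 80.3% in the sham arrays. Regressed on their known amounts in log units, the spiked transcripts gave a signal slope of 0.941, 0.828 and 0.866 in ischemic replicates 1, 2 and 3, against 0.788, 0.828 and 0.846 in the sham replicates. Replicate 1 of ischemia had the highest slope of all 18 arrays and replicate 1 of sham the lowest, and both lay on the same slide. Each of the 3 slides used held 1 array of either group. Correlations across probes ran from 0.954 to 0.989 between ischemic arrays, from 0.981 to 0.992 between sham arrays and from 0.930 to 0.992 between the groups. The part of the slope in the results was not tested beyond the fits that leave out or block by it.

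Of 12432 genes tested, 177 were called higher in ischemia (1.42%) and 27 lower (0.217%) at an adjusted p under 0.05 in limma. At an unadjusted p under 0.05 there were 1596 of the 12432, 973 higher and 623 lower. Unadjusted counts in the lists below are to be set beside these. The rises were the larger changes. By the fitted values 66 genes rose at least 2-fold, 24 at least 4-fold and 9 at least 8-fold, whereas 1 gene fell by at least 2-fold. In 6 of the 66 no sham array was above background, and for 4 of these the bound on the rise is under 2-fold. The median change was 0.78 among the genes called higher and -0.50 among those called lower, against -0.02 over all genes. In all 204 called genes the 3 ischemic rats lay apart from the 3 sham rats, and so did the groups in 18% of all genes. It follows from this separation that each of the 204 had the sign of the fit within all 3 slides. Over probes, 363 of 28637 were called (1.27%), 295 higher and 68 lower. Scaled by the array median, which moved the median change of all probes to 0.23 from -0.05, the counts were 97 higher and 0 lower (185 lower at an unadjusted p under 0.05), and without scaling 121 and 51. The number of calls moved by more than 1.5 times when ischemic replicate 3 (225 probes), sham replicate 2 (235) or sham replicate 3 (236) was left out. The fit of the 6 arrays by themselves, with fewer degrees of freedom, called 29 probes.

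**Figure D1:**
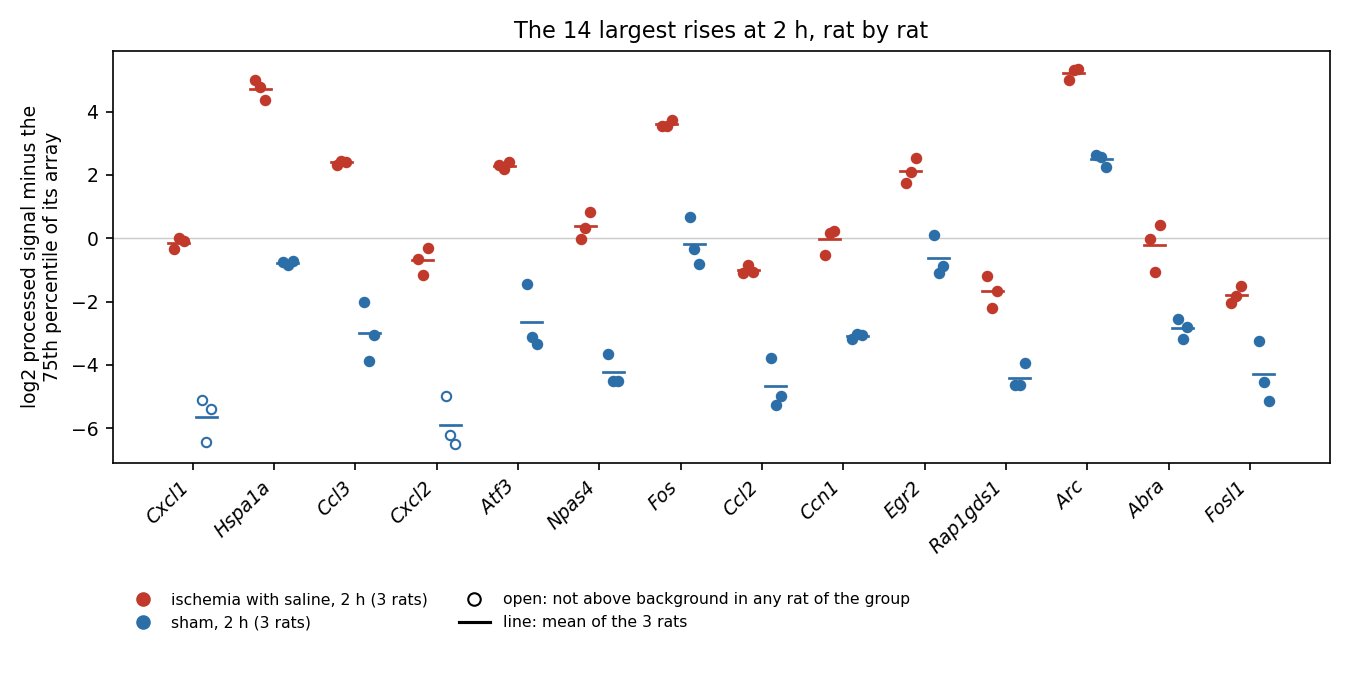
Level (log2 processed signal minus the 75th percentile of the array) of the 14 genes with the largest called rises, in 3 rats with ischemia and saline (left, red) and 3 sham rats (right, blue) at 2 h. Each point is 1 rat, lines are means of the 3 rats, and open points mark groups in which no rat read the probe above background, here Cxcl1 and Cxcl2 in sham. Groups that stand apart were a condition for being shown.

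The dimers of Fos and Jun family proteins form AP-1, the transcription factor best known among immediate-early products. Of 12 tested members of the AP-1 and related bZIP list, 7 rose and 0 fell, with a median change of 1.03. Atf3, a stress-induced bZIP factor, read 2.31, 2.17 and 2.40 in the ischemic rats, against -1.45, -3.11 and -3.34 in the sham rats. The ischemic rats lay within a narrow range and sham replicate 1 stood above the other sham rats. Its change was 4.93 ± 0.37, 30.4-fold (adjusted p = 1.54e-05). Fos read 3.55, 3.53 and 3.75 in ischemia, against 0.66, -0.35 and -0.83 in sham, a 13.8-fold difference (3.78 ± 0.31, adjusted p = 2.75e-05). Again sham replicate 1 was the highest of its group, and still well under every ischemic rat. Fosl1 and Fosl2, Fos relatives that lack the strong activation domain of Fos, rose by 2.50 ± 0.37 and 1.95 ± 0.17, the first with 1 of 3 sham arrays above background. Junb rose 5.23-fold (2.39 ± 0.22) and Jun 2.50-fold (1.32 ± 0.12). Jund was at 0.30 ± 0.11 and Mafk at 0.47 ± 0.13, and neither passed (adjusted p = 0.28 and 0.12).

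Zinc finger factors of the Egr family and orphan nuclear receptors of the Nr4a family, with the Klf factors, formed a second list. Of its 14 tested members 8 rose and 1 fell, with a median of 1.07. Egr1 read 4.66, 4.75 and 4.88 in ischemia, against 3.40, 3.06 and 2.94 in sham. The lowest ischemic rat lay more than a log2 unit above the highest sham rat, and the change was 1.63 ± 0.14, 3.09-fold (adjusted p = 4.28e-05). Egr2 read 1.74, 2.10 and 2.52 in ischemia, against 0.12, -1.10 and -0.88 in sham (2.74 ± 0.30, 6.70-fold). Egr4 rose 4.22-fold (2.08 ± 0.21). Nr4a1, a receptor induced by calcium and by growth factors, read 5.74, 5.76 and 5.96 in ischemia, against 3.46, 3.65 and 3.48 in sham, 4.88-fold. Its relatives Nr4a3 and Nr4a2 rose 2.87-fold and 2.32-fold. The member that fell was Klf15, a glucocorticoid-responsive factor named here after its values were seen, at -0.49 ± 0.09 (adjusted p = 0.0186). Klf10 (0.31 ± 0.22) and Klf9 (-0.04 ± 0.12) did not pass.

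Serum response factor, which carries Ras and calcium signals to early genes, binds the CArG box. The RefSeq promoter table (build GRCr8) holds an entry of 250 bases before to 50 bases after the start for 9617 of the 12432 genes, for 123 of the 177 called higher and for 46 of the 66 with a fitted rise of at least 2-fold. Searched on both strands, a CArG box stood in 1.15% of all these promoters and in 4.07% (5 of 123) of those called higher, namely Egr1, Egr2, Dusp5, Zfp36 and Klf6. All 5 are among the 46 with a fitted rise of at least 2-fold (10.9%), although the bound for Zfp36, below background in sham, is 1.36-fold. Klf6 was named for its promoter after its values were seen. Among 19 genes called lower with an entry, 1 had it (5.26%). These are descriptions of letters and no test was run. The CArG boxes of 4 of these genes are shown in capitals in the strand of the gene, because all of them lie close upstream of the start:
Egr1: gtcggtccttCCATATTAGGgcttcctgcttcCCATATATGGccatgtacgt
Egr2: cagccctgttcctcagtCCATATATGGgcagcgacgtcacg
Dusp5: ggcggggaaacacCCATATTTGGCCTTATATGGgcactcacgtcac
Zfp36: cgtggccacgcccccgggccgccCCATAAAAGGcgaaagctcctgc
The stretch of Egr1 (chr18:26736963-26737014, plus strand) runs from 115 to 64 bases before the start and holds 2 boxes. That of Egr2 (chr20:21054501-21054541, minus strand) runs from 100 to 60 bases before it and holds 1. That of Dusp5 (chr1:262543679-262543724, plus strand) holds 2 boxes side by side, and that of Zfp36 (chr1:92799118-92799163, minus strand) holds 1.

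Other immediate-early genes rose in 10 of 16 tested members, with 0 lower and a median of 0.88. Npas4, a factor that neurons make in response to calcium entry, read -0.02, 0.31 and 0.82 in ischemia, against -3.65, -4.52 and -4.50 in sham, where 1 of 3 arrays read it above background. The groups lay far apart, and the change was 4.59 ± 0.50 (adjusted p = 0.000193). Ccn1, a secreted matrix-associated protein, read -0.52, 0.18 and 0.23 in ischemia, against -3.19, -3.03 and -3.06 in sham, an 8.33-fold rise (3.06 ± 0.26). Btg2, an antiproliferative cofactor of mRNA deadenylation, rose 5.46-fold, Ier2 3.67-fold and Ier3 2.16-fold. Zfp36, which binds cytokine mRNAs and speeds their decay, was read above background in all ischemic rats and in no sham rat, so its change of 2.39 ± 0.25 is at least 1.36-fold. Srf (0.18 ± 0.07) and Id2 (0.25 ± 0.09) did not pass.

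CREB, the factor through which calcium and cyclic AMP reach promoters, binds the CRE. Its palindromic form TGACGTCA stood in 2.92% of all promoters searched, in 8.94% (11 of 123) of those called higher and in 5.26% (1 of 19) of those called lower. The AP-1 letters TGANTCA stood in 5.29% of all, in 8.94% of those called higher and in 0 of 19 called lower. A CRE match is never an AP-1 match because the centres differ in length. The CREs of 4 named genes are shown in capitals because each is a perfect palindrome within 250 bases of the start of a gene that rose at least 3-fold:
Ier2: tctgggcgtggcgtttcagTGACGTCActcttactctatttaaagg
Ppp1r15a: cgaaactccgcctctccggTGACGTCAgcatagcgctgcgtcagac
Dusp1: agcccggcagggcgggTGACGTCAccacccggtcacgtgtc
Btg2: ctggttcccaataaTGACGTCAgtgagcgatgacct
The stretches of Ier2 (chr19:40399288-40399333, plus strand) and of Ppp1r15a (chr1:105139636-105139681, minus strand) both run from 85 to 40 bases before the start, and their CREs begin at the same distance, after 19 printed bases. Those of Dusp1 (chr10:17184713-17184753, plus strand) and Btg2 (chr13:48087870-48087905, minus strand) begin 140 and 215 bases before it.

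Feedback inhibitors of MAP kinase signalling rose too: 5 of 12 tested phosphatases and Sprouty family members, with 0 lower and a median of 0.16. Dusp5, a nuclear phosphatase of ERK, rose 3.82-fold (1.93 ± 0.28). Dusp1, which acts on p38 and JNK, read 3.26, 3.10 and 3.39 in ischemia, against 1.41, 1.55 and 1.44 in sham (3.44-fold, adjusted p = 2.3e-05). Here both groups were tight and sham replicate 1 was not the highest. Dusp6, the cytoplasmic phosphatase of ERK, rose 3.06-fold, and Spry2, a receptor tyrosine kinase antagonist, 1.58-fold. Spry1 was called at 0.44 ± 0.10, but in only 8 of 24 alternative analyses. Dusp8 (0.06 ± 0.12), Spred1 (-0.05 ± 0.09) and Dusp2 (0.26 ± 0.29) did not pass.

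Effector genes that neuronal activity induces rose in 13 of 23 tested members with 0 lower, all 23 had a positive change, and the median was 0.56. Arc, whose protein acts at synapses on glutamate receptor traffic, read 4.99, 5.30 and 5.33 in ischemia, against 2.64, 2.58 and 2.25 in sham. The difference was 6.57-fold (2.72 ± 0.24, adjusted p = 4.28e-05), and the groups lay more than 2 log2 units apart. The neurotrophin Bdnf read 0.40, 0.37 and 0.95 in ischemia, against -0.76, -1.10 and -1.0 in sham (2.89-fold, 1.53 ± 0.20). Rasl11a, a small GTPase relative, rose 2.74-fold, the repressor Nfil3 2.57-fold, the salt-inducible kinase Sik1 2.48-fold and Crem, a CREB relative, 2.24-fold. The secreted peptide precursor Vgf (0.37 ± 0.14) and the pentraxin Nptx2 (0.87 ± 0.24) did not pass (adjusted p = 0.30 and 0.12). Abra, an actin-binding activator of serum response factor signalling described in muscle, was in no list and stood among the largest rises, with -0.03, -1.05 and 0.43 in ischemia against -2.55, -3.17 and -2.81 in sham (6.17-fold).

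Heat shock genes showed 1 extreme rise: 4 of 18 tested members were called higher and 0 lower, and the median was 0.25. At an unadjusted p under 0.05 in limma, 11 of the 18 were higher and 0 lower. Hspa1a, the stress-inducible HSP70 chaperone, read 5.0, 4.78 and 4.36 in ischemia, against -0.76, -0.85 and -0.71 in sham. The means were 4.71 ± 0.33 in ischemia and -0.78 ± 0.07 in sham (SD, n = 3 each), a 44.9-fold difference (5.49 ± 0.17, adjusted p = 1.18e-09). Hspa1b is a nearly identical copy that was not tested, so signal of the 2 genes was not separated. Hspb1, the small heat shock protein HSP27, read 0.37, 0.29 and -0.13 in ischemia, against -1.77, -1.96 and -1.91 in sham (4.15-fold). Dnajb1, an HSP40 cochaperone of HSP70, rose 1.64-fold, and the small heat shock protein Cryab was called at 0.43 ± 0.09 in the analysis reported and in 7 of 24 alternatives. The constitutive chaperones Hsp90aa1 (0.24 ± 0.09), Hsp90ab1 (0.19 ± 0.08) and Hspa8 (0.33 ± 0.15) did not pass. HSF1 binds inverted repeats of GAA, here searched as GAANNTTC, which stood in 6.02% of all promoters and 9.76% of those called higher, and in the opposite order TTCNNGAA in 7.05% and 4.07%. Among 19 genes called lower with an entry, 0 held the first form and 1 the opposite order. Hspb1 holds the first form in 2 places, in capitals here because it is the second most changed member:
Hspb1: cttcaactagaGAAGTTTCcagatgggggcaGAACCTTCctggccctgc
This stretch (chr12:26432393-26432441, minus strand) runs from 140 to 92 bases before the start.

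In the integrated stress and unfolded protein response list 1 of 15 tested members rose, and the median was 0.16. It was Ppp1r15a (GADD34), which directs a phosphatase to eIF2 alpha and so restores translation, with 1.97, 1.75 and 1.98 in ischemia against 0.25, 0.13 and 0.20 in sham. That is 3.27-fold (1.71 ± 0.13, adjusted p = 1.54e-05), with groups far narrower than their distance. The endoplasmic reticulum chaperone Hspa5 (BiP) was at 0.34 ± 0.08 (adjusted p = 0.065) and Atf5 at 0.16 ± 0.11, and neither passed.

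Among 22 tested chemokine ligands 5 rose and 0 fell, and the other members left the median at 0.13. Cxcl1, which attracts neutrophils, read -0.34, 0.01 and -0.09 in ischemia, against -5.09, -6.44 and -5.40 in sham. No sham array read it above background, so the change of 5.50 ± 0.33 (adjusted p = 2.29e-06) is at least 19.8-fold. Cxcl2, another neutrophil attractant, read -0.65, -1.15 and -0.29 in ischemia, against -4.99, -6.22 and -6.50 in sham, at least 13.4-fold. Ccl3, made by microglia and macrophages, was above background in all 6 rats, with 2.32, 2.45 and 2.41 in ischemia against -2.02, -3.87 and -3.06 in sham (41.5-fold, 5.37 ± 0.36). The ischemic values spanned little, while the sham values spanned almost 2 log2 units with replicate 1 highest. Ccl2, which attracts monocytes, read -1.11, -0.84 and -1.08 in ischemia, against -3.78, -5.26 and -4.98 in sham, of which 1 was above background (3.66 ± 0.35). Ccl4 rose by 2.12 ± 0.32, also with 1 sham array above background. The neuronal chemokine Cx3cl1 (0.25 ± 0.07, adjusted p = 0.10), Cxcl14 (0.03 ± 0.13) and Cxcl12 (0.15 ± 0.12) did not pass.

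NF-kB sites, searched by their 10-base consensus, stood in 9.88% of all promoters, in 12.2% (15 of 123) of those called higher and in 10.5% (2 of 19) of those called lower. The sites of the 2 neighbouring chemokine genes are shown because they differ little and lie at like places:
Cxcl1: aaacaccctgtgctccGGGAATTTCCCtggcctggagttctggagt
Cxcl2: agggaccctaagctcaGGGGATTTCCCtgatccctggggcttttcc
In both, matches on the 2 strands overlap and make up the run in capitals. The stretch of Cxcl1 (chr14:17479376-17479421, minus strand) begins 100 bases before the start and that of Cxcl2 (chr14:17467300-17467345, minus strand) 90.

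Cytokine ligands rose in 2 of 14, both interleukin 1. Il1b read -1.78, -1.62 and -1.79 in ischemia, against -2.83, -4.00 and -4.14 in sham (3.80-fold, 1.93 ± 0.29), with sham replicate 1 more than 1 log2 unit above the other sham rats. Il1a was called at 1.45 ± 0.31 with 1 sham array above background, and in 9 of 23 alternatives. Il33 (-0.22 ± 0.10), Csf1 (0.04 ± 0.08) and Il18 (0.31 ± 0.14) did not pass. Of 19 receptors 2 rose, Tnfrsf1b (TNF receptor 2) 2.17-fold and the interleukin 1 receptor accessory chain Il1rap 1.41-fold. In the list of NF-kB subunits and inhibitors 1 of 12 rose, Nfkbiz, at 0.79 ± 0.18 and in only 3 of 23 alternatives, while the inhibitor Nfkbia was at 0.05 ± 0.17. Of 10 leukocyte adhesion molecules Icam1 rose, 2.06-fold (1.04 ± 0.14), and Vcam1 was at -0.06 ± 0.08. Prostaglandin synthesis contributed Ptgs2 (COX-2), with 0.62, 0.70 and 1.12 in ischemia against -0.60, -1.6 and -1.6 in sham (4.23-fold), and the terminal synthase Ptges (3.25-fold), 2 of 11 tested. Ptgs1 (COX-1) did not pass at 0.15 ± 0.13. Of 19 interferon response genes 0 were called in limma (2 at an unadjusted p under 0.05).

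Of 22 matrix, protease and clotting genes 4 rose, with a median of 0.17. Timp1, an inhibitor of matrix metalloproteinases, rose 3.02-fold (1.59 ± 0.19), and the tissue plasminogen activator Plat 1.78-fold and the anticoagulant receptor Thbd 1.56-fold. Adamts1, a protease of proteoglycans, was above background in ischemia only, so its change of 2.23 ± 0.32 is at least 1.55-fold. Timp2 was at 0.15 ± 0.06 and the coagulation starter F3 at -0.14 ± 0.09. Of 18 growth factor ligands Gdf15, a stress-induced TGF-beta relative, was called at 2.19 ± 0.47, in 11 of 23 alternatives and with 1 sham array above background.

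Stress and metabolic lists held fewer calls. Of 27 hypoxia and glycolysis genes 0 were called in limma (8 at an unadjusted p under 0.05, all higher, with a list median of 0.06). The uncalled members included the glycolytic enzymes Pgam1 (0.14 ± 0.07) and Hk1 (-0.02 ± 0.09). Of 16 antioxidant and metallothionein genes 2 rose, the heme oxygenase Hmox1 by 0.86 ± 0.17 and Mt1 by 0.63 ± 0.14, the second in 6 of 24 alternatives. Apoptosis and p53 genes rose in 5 of 22: Btg2 as above, Gadd45g 3.66-fold, Phlda1 1.90-fold, Gadd45b 1.82-fold (in 8 of 24 alternatives) and the antiapoptotic Mcl1 1.46-fold. Bcl2l1, another survival factor, was at -0.04 ± 0.06. Of 18 genes of cholesterol synthesis and uptake 2 rose, the isomerase Idi1 1.72-fold and Insig1, which holds SREBP in the endoplasmic reticulum, 1.43-fold and in 6 of 24 alternatives.

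The falls were small, and each rat's value is needed to judge them. Fmo2, a flavin monooxygenase, read -3.79, -3.78 and -3.93 in ischemia, against -2.51, -3.36 and -2.53 in sham (-1.03 ± 0.20, adjusted p = 0.0185, in 12 of 24 alternatives). Sham replicate 2 lay much nearer to the ischemic rats than the other sham rats did. Srarp, known in humans as a steroid receptor partner, read -1.38, -0.84 and -0.96 in ischemia, against 0.01, 0.02 and -0.24 in sham (-0.99 ± 0.16). Sox18, an endothelial transcription factor, read -0.55, -0.79 and -0.57 in ischemia, against 0.43, 0.42 and 0.09 in sham (-0.95 ± 0.14, adjusted p = 0.00333). Mrpl41, of the mitochondrial ribosome, fell by 0.80 on the log2 scale and was the 1 of 57 tested mitochondrial ribosomal proteins to be called. Degs2, an enzyme of sphingolipid synthesis, fell by 0.68 and was the 1 of 16 in its list, whereas its relative Degs1 was at 0.06 ± 0.09.

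C15h8orf58 (-0.71 ± 0.13), the Wnt receptor Fzd9 (-0.64 ± 0.07), the endothelial membrane protein Tmem204 (-0.58 ± 0.09), Pop1 of RNase P (-0.53 ± 0.10) and Smarcd2 of the SWI/SNF chromatin complex (-0.51 ± 0.09) completed the falls called in more than 12 alternatives. The other falls by the naming rule were called in 6 to 9 of 24 alternatives: Pdzd4 (-0.67 ± 0.15), Tecpr2 (-0.66 ± 0.13), the clock output factor Tef (-0.60 ± 0.13) and Pwwp2b (-0.50 ± 0.11). Under scaling by the array median 0 probes were called lower in limma, and each of these falls kept its sign. Of 15 clock genes 2 fell, Tef and its relative Dbp (-0.44 ± 0.10, in 9 of 24 alternatives), and the list's median was -0.27, running from -0.36 to 0.01 over the alternatives. Per1, the light- and CREB-responsive clock gene, was at 0.54 ± 0.13 and did not pass (adjusted p = 0.073).

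**Figure D2:**
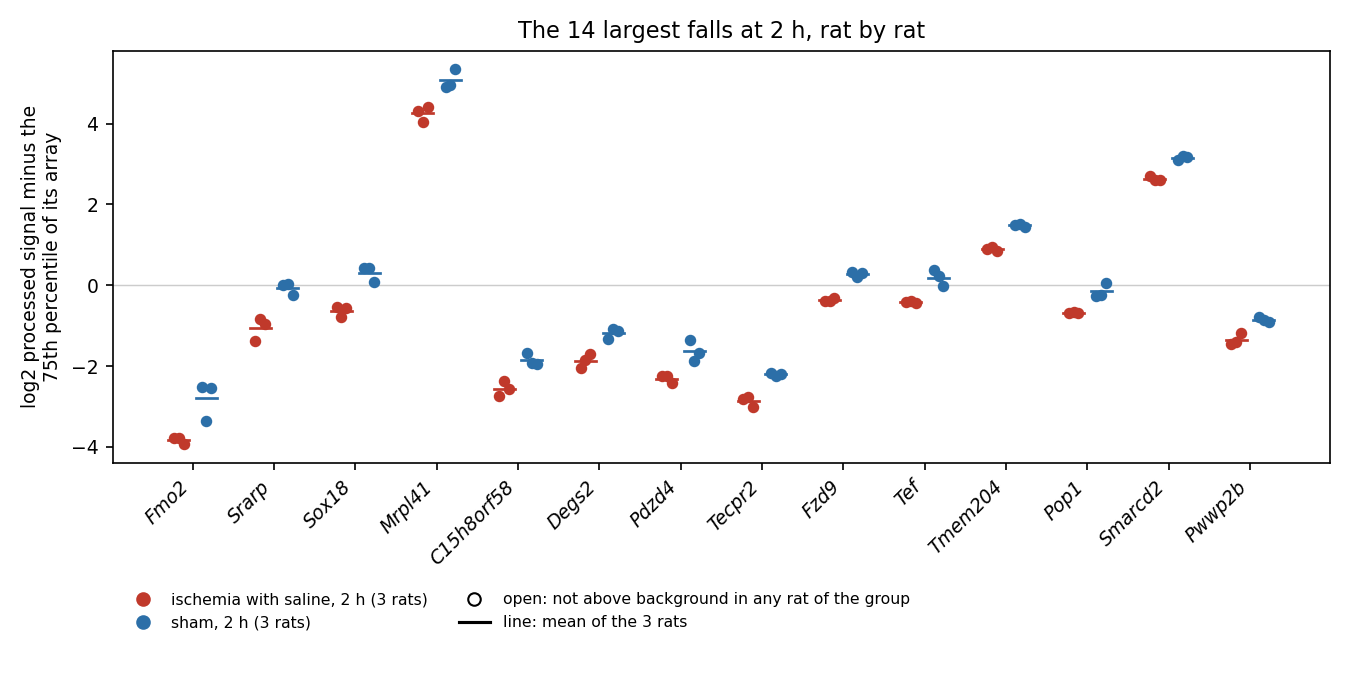
Level (log2 processed signal minus the 75th percentile of the array) of the 14 genes with the largest called falls, in 3 rats with ischemia and saline (left, red) and 3 sham rats (right, blue) at 2 h. Points are rats and lines are means. All differences but that of Fmo2 are under 1 log2 unit. Groups that do not overlap were a condition for being shown.

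Genes of neuronal excitability changed little. Of 30 voltage-gated ion channel genes 2 rose: Kcnv1, a modifier subunit of Kv2 potassium channels, read 2.89, 2.79 and 2.92 in ischemia, against 2.14, 2.17 and 2.26 in sham (1.6-fold, adjusted p = 7.59e-05), and Kcna4 rose 1.48-fold. The spread within both groups was a small part of the difference for Kcnv1. Of 17 ionotropic glutamate receptor subunits Grin2b was called at 0.66 ± 0.14, in 8 of 24 alternatives, while Grin1 (0.06 ± 0.08) and Gria2 (0.04 ± 0.07) did not pass. Of 15 GABA-A receptor and GABA synthesis genes 0 were called in limma (1 at an unadjusted p under 0.05). Housekeeping lists had 0 calls in limma in 22 oxidative phosphorylation subunits, 35 proteasome subunits and 76 cytosolic ribosomal proteins, against 1, 9 and 15 at an unadjusted p under 0.05. Of the ribosomal proteins 75 had a positive change, with a median of 0.11 that ran from 0.01 to 0.38 over the alternatives.

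Markers of cell types were set beside these results. Cortical excitatory neuron markers averaged a level of 2.54 to 2.80 in the ischemic rats and 2.70 to 2.76 in the sham rats, and 0 of 12 were called in limma (4 at an unadjusted p under 0.05, of which 3 were lower). Astrocyte markers averaged 2.65 to 2.74 in ischemia and 2.73 to 2.77 in sham, with 1 of 11 called, the factor Sox9 (1.5-fold), and Gfap at 0.04 ± 0.19. Microglia and macrophage markers averaged 0.06 to 0.11 in ischemia and -0.10 to -0.02 in sham. In that list 2 of 15 were called, the endotoxin co-receptor Cd14 (1.90-fold, in 14 of 24 alternatives) and the lysosomal Cd68 (1.33-fold, in 4 of 24), while C1qb (0.33 ± 0.09) and Aif1 (0.28 ± 0.08) did not pass. Oligodendrocyte markers averaged 3.27 to 3.30 in ischemia and 3.11 to 3.21 in sham, with 0 of 12 called in limma and 4 at an unadjusted p under 0.05, all higher. Striatal neuron markers averaged 0.70 to 1.24 in ischemia and 0.31 to 0.97 in sham, which are overlapping ranges. Of these 10 markers 0 were called in limma, and 5 had an unadjusted p under 0.05, all higher. The list's median was 0.38, running from 0.24 to 0.65 over the alternatives. Endothelial markers averaged -1.66 to -1.27 in ischemia and -1.33 to -1.11 in sham, with 1 of 18 called, Sox18, and neither Cldn5 (-0.32 ± 0.14) nor Kdr (0.56 ± 0.15) past the test. Of 9 mural markers Kcnj8, a potassium channel of pericytes, rose 1.71-fold, and Pdgfrb was at 0.08 ± 0.09. Their part in the changes of other genes was not tested.

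**Figure D3:**
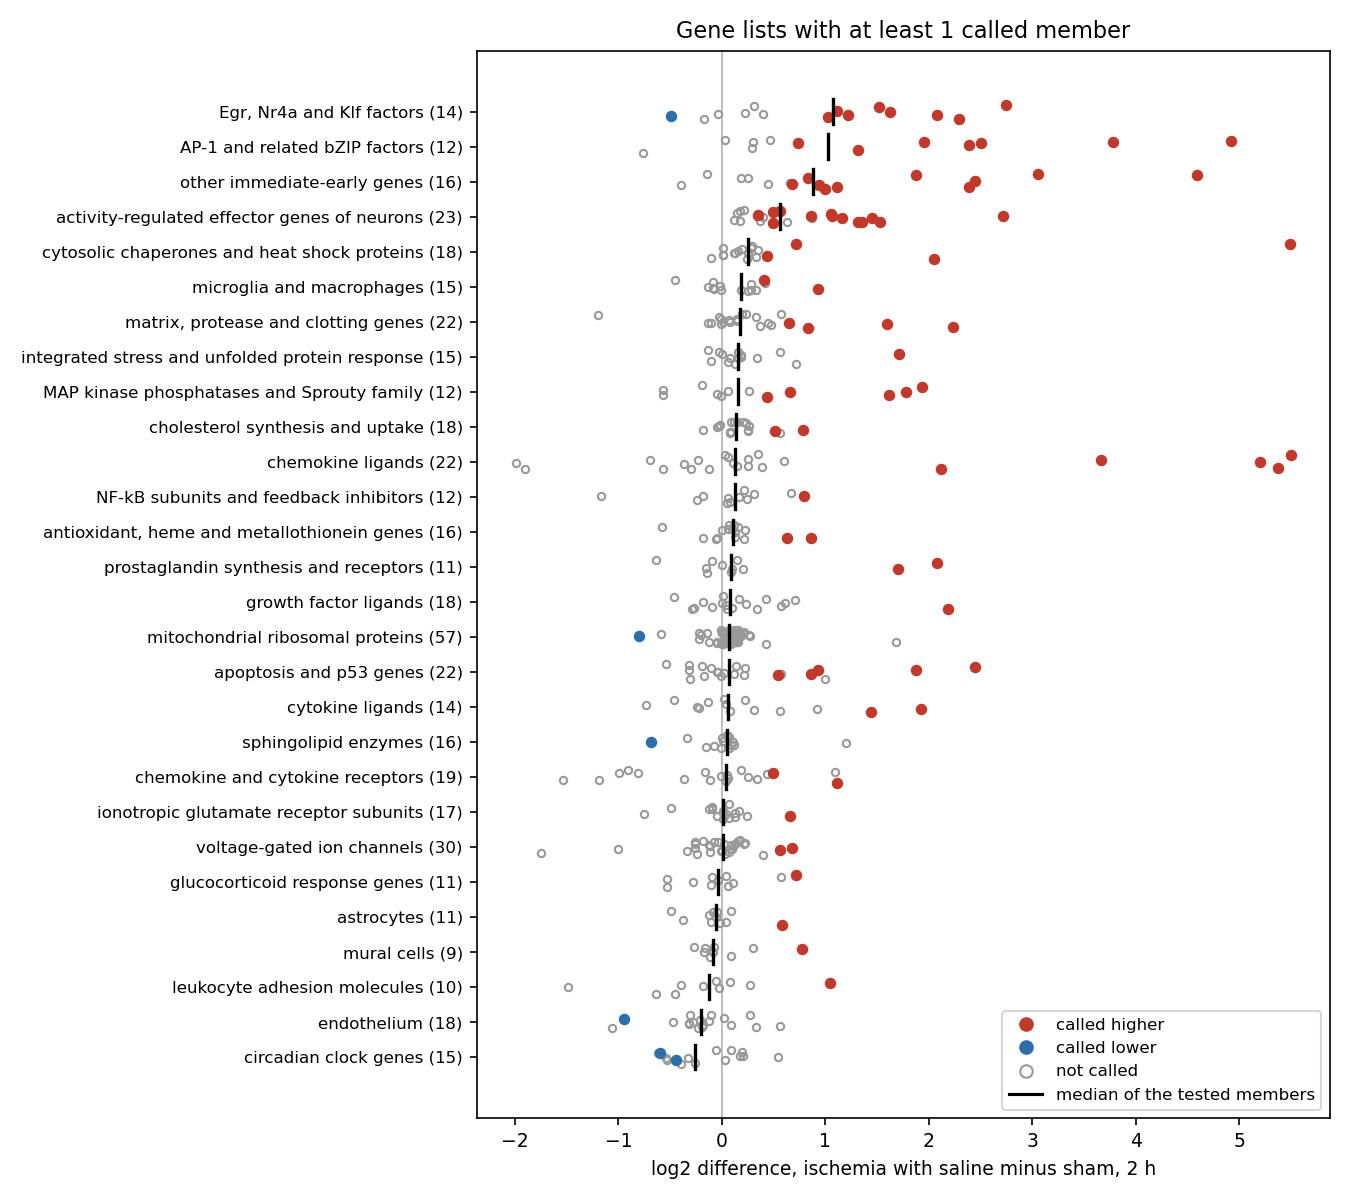
Change at 2 h (log2, ischemia with saline minus sham) of the tested members of each list that holds at least 1 called gene, lists ordered by their median (black bar), with the number of tested members in brackets. Red points are called higher, blue points lower and open points not called. The 4 lists of immediate-early and activity-regulated genes have medians from 0.56 to 1.07, and the chemokine list a median of 0.13 with 5 members far to the right.

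Of the 177 genes called higher, 81 stood in at least 1 of the 45 lists, which were chosen with earlier results of these data known, and of the 27 called lower, 6 did. One large rise outside them was uncertain: Rap1gds1, an exchange factor for small GTPases, was called at 2.74 ± 0.58 but in 9 of 23 alternatives, with 1 sham array above background. Of the called genes, 61 had 81 other tested probes, of which 67 had the same sign, 32 were called in that direction and 0 in the opposite one in limma.

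In the larger rises the ischemic rats differed little in level, and sham replicate 1 lay above the other sham rats. Over the 66 genes with a fitted rise of at least 2-fold, the median of a rat's level minus the sham mean was 1.71, 1.67 and 1.76 in ischemic replicates 1, 2 and 3, against 0.20, -0.10 and -0.08 in the sham replicates. Sham replicate 1 was the highest sham rat in 48 of these 66 genes (72.7%) and in 42.9% of all 12432 genes. Ischemic replicate 3 was the highest ischemic rat in 40 of the 66 (60.6%) and in 33.5% of all genes. Without sham replicate 1 the fit called 335 probes, and without ischemic replicate 1 it called 242, of which 228 were among the 363. The part of spike-in slope in this order was not tested.

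A second question was how the changes at 2 h compared with those at 6 h. The same comparison at 6 h uses 3 other ischemic and 3 other sham rats, so the difference between the changes shares no array. The slides were not balanced at 6 h: the ischemic arrays lay on slides 2, 3 and 5 and the sham arrays on 3, 4 and 5. Ischemic replicate 3 and sham replicate 1 at 6 h were scanned on day 2, the other arrays compared on day 1. The part of scan day was not tested. At 6 h 7.08% of genes were called higher and 4.47% lower, and 119 of the 177 genes higher at 2 h and 12 of the 27 lower at 2 h were called in the same direction. The difference of the changes was called for 400 of 28637 probes (1.40%), and for 86 genes with the larger value at 2 h (0.692%) and 149 with the larger value at 6 h (1.20%). Among the 177 rises at 2 h, 25 were larger at 2 h and 13 were larger at 6 h. Without the 6 arrays of slope above 0.9, which leaves 1 ischemic array at 6 h that is assumed to vary like the others, it called 0 probes in limma (1820 at an unadjusted p under 0.05). Scaled by the array median it called 4 probes. The count also moved by more than 1.5 times without ischemic replicate 1 (236 probes) or 3 (231) at 2 h, or without ischemic replicate 2 (238) or 3 (203) or sham replicate 3 (223) at 6 h.

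Immediate-early factors were among the genes whose change was larger at 2 h. Egr1 changed by 1.63 at 2 h and 0.23 at 6 h, Nr4a1 by 2.29 and 0.58, Nr4a2 by 1.22 and 0.05, Nr4a3 by 1.52 and 0.10, and Fosl2 by 1.95 and 0.30. In the Egr, Nr4a and Klf list 5 of 14 members had a called difference of this kind and 0 had the opposite. Abra changed by 2.63 at 2 h and 0.38 at 6 h, and Dusp6 by 1.61 and 0.39. Kcnv1 had opposite signs, with 0.68 at 2 h and -0.63 at 6 h, each called at its own time, and the difference was 1.31 ± 0.09 (adjusted p = 2.84e-05). Neurod6, a factor of cortical excitatory neurons, was at 0.66 (adjusted p = 0.072) at 2 h and -0.78 at 6 h, and the neuropeptide Y receptor Npy1r at 0.44 (0.22) and -0.98. For Fos, Arc, Npas4, Jun, Ier2, Ier3 and Ppp1r15a the difference between the times did not pass. As the change at 2 h minus that at 6 h, it was 1.798 ± 0.706 for Npas4, 1.121 ± 0.336 for Arc and 1.098 ± 0.442 for Fos. These fitted values lay on the side of the larger change at 2 h, and not passing does not show equal changes. It was 0.4025 ± 0.206 for Ier2, 0.127 ± 0.164 for Jun, -0.0026 ± 0.12 for Ier3 and -0.022 ± 0.182 for Ppp1r15a.

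Several genes with the larger change at 6 h were at or below background at 2 h, where the signed change has no reading, so their differences between the times are fitted values only. Sele (E-selectin), by which endothelium captures leukocytes, was above background on 0 of the 6 arrays at 2 h and on all 3 ischemic arrays at 6 h, when its fitted change was 4.66. The chemokine Ccl12 was likewise above background on 0 arrays at 2 h, and changed by 3.03 at 6 h with all 3 ischemic and 0 sham arrays above background. The protease inhibitor Serpina3n was above background on 1 of 3 arrays in each group at 2 h, and changed by 3.98 at 6 h, when all 6 arrays read it. Trib3, a pseudokinase of the stress response, was at 0.72 ± 0.22 (adjusted p = 0.18) at 2 h and 3.34 at 6 h, and the interferon-inducible GTPase Gbp2 at 0.27 ± 0.12 and 2.42. Other genes were already called at 2 h and higher again at 6 h: Hspa1a at 5.49 and 6.74, Hspb1 at 2.05 and 3.48, Hmox1 at 0.86 and 2.99, Gadd45b at 0.87 and 2.60, Icam1 at 1.04 and 2.12, and Ccl4 at 2.12 and 4.17. For Ccl4, 1 of 3 sham arrays was above background at 2 h and 0 at 6 h, so both changes are fitted values only. For Cxcl1, Cxcl2, Ccl2, Ccl3, Atf3 and Il1b the difference between the times did not pass.

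**Figure D4:**
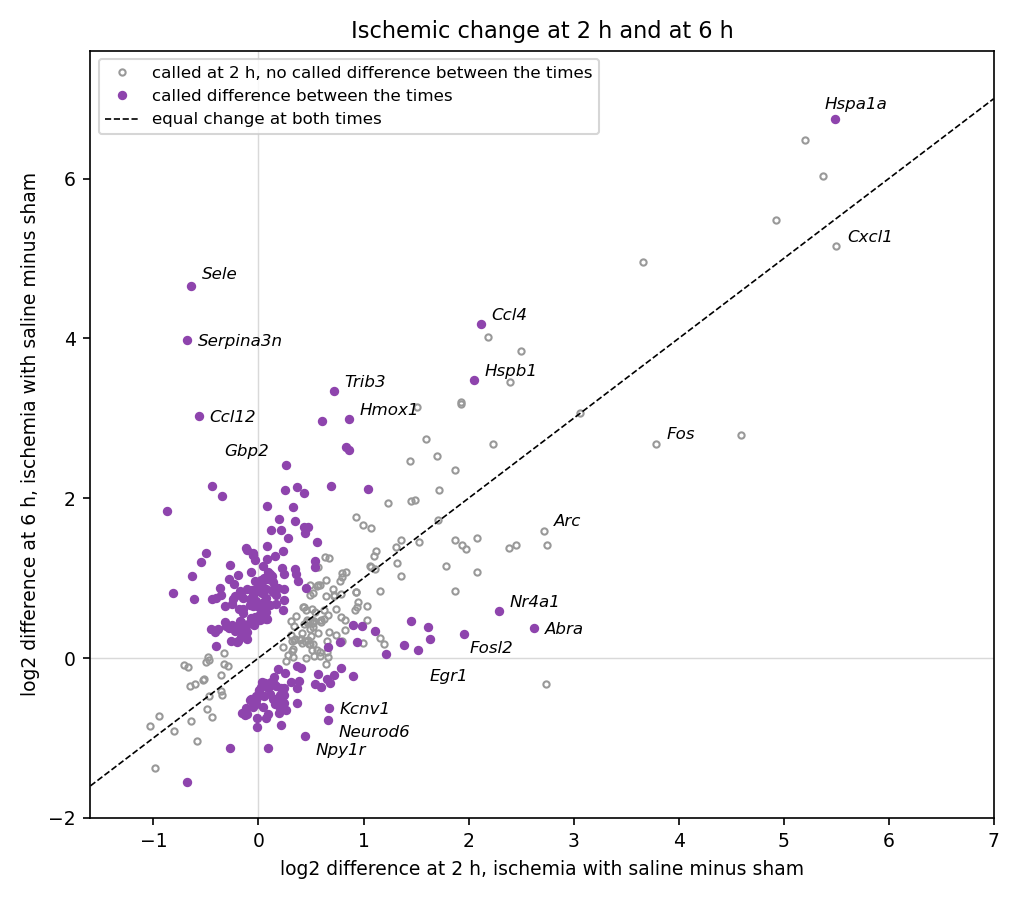
Change at 2 h (x axis) against change at 6 h (y axis), both log2 of ischemia with saline minus sham, of genes called at 2 h or with a called difference between the times. Filled points have a called difference between the times, open points do not, and the dashed line marks equal change. Sele, Serpina3n and Ccl12, at or below background on most or all arrays at 2 h, lie above 3 on the y axis, and Abra, Nr4a1, Fosl2 and Egr1 lie to the right of the line.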

How the data were processed

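RNA of 18 cortices, 3 rats in each of 6 groups, was measured on 1-colour arrays. The deposited scanner files hold a background-subtracted intensity for each spot, per the file headers, and the software was Agilent Feature Extraction 9.1.1.1 per the submitters' processing notes. The authors' deposited value table, in log2, holds the same signals averaged over spots and not scaled between arrays. Depth does not apply, and the number of arrays limits the precision.

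Control spots (1639) and outlier spots were left out, spots of a probe were averaged in log2, and each array was centred on its 75th percentile. Tested were the 28637 probes that some group read well above background on all its arrays; 345 probes without a usable spot on some array were not. Names came from RefSeq (GRCr8), matched by accession (10735), symbol (5577) or synonym (3730), and 20970 probes had none. The tested probe of highest mean signal stood for a gene. Where the lower group lay below background on all its arrays, the fold is a bound: the dim level is, per array, the probe's signal or the least signal still called above background, whichever is higher.

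With limma 3.58.1 (R 4.3.3), 6 group means were fitted to all 18 arrays (12 residual degrees of freedom, two-sided moderated tests, Benjamini-Hochberg over the probes tested, threshold 0.05). The labels do not say more of the rats than 1 array each, so p-values measure the spread between these samples. By rule the 14 largest called rises and falls were named, among genes whose groups did not overlap. So were up to 6 called and 3 uncalled genes of highest signal of each list, and 6 genes in each direction between the times. Always named were Epor, Bdnf, Arc, Egr1, Fos, Npas4, Hspa1a, Il1b, Ccl2 and Gfap. Epo was not tested, and 1 gene that the rule names is not reported here. The rule, the 45 lists and the comparison were chosen with earlier results of these data known. The scaling, background correction, filter, variance model, slide, slope, replicate block, threshold and arrays were varied. In simulated data of this comparison (28637 probes) 48.7% of 1.5-fold, 66% of 2-fold and 82.7% of 4-fold changes were recovered, with 6 false calls per run. The simulated probes varied independently, without effects of slope, scaling or background, so recovery in the real arrays may differ.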

Additional observations from a re-analysis of the deposited data

Results flagged for a closer look

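For 36 named genes the ischemic change at 2 h and that at 6 h, measured in different rats, differed by the limma test of the difference itself. These are given as the change at 2 h minus the change at 6 h, on the log2 scale. Such a difference can lie in the ischemic rats, in the sham rats or in both. Among transcription factors and signalling genes the change at 2 h was the larger by 1.71 for Nr4a1, 1.65 for Fosl2, 1.42 for Nr4a3, 1.39 for Egr1, 1.16 for Nr4a2, 2.25 for Abra, 1.22 for Dusp6, 0.99 for Rasl11a and 0.53 for Spry2. Neuronal, vascular and other genes on the same side were Neurod6 at 1.44, Npy1r at 1.42, Kcnv1 at 1.31, Kcna4 at 0.76, Kcnj8 at 0.57 and Degs2 at 0.87, which fell at both times and further at 6 h. The clock genes Per1 and Per2 were at 0.87 and 0.78, with neither called at 2 h. Mean Per2 was 1.04 in ischemia at both times, and 0.95 at 2 h and 1.73 at 6 h in sham. Spry2 read 0.93 and 1.14 in ischemia, against 0.27 and 1.00 in sham. Egr1, by contrast, moved mostly in ischemia, with 4.76 and 3.57 there and 3.13 and 3.34 in sham.

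Inflammatory genes lay on the other side, at -2.06 for Ccl4, -2.15 for Gbp2, -1.08 for Icam1, -1.11 for Nfkbia, -1.16 for Cd44, -1.24 for Il6r and -0.78 for Csf1. Stress and metabolic genes there were Trib3 at -2.62, Hmox1 at -2.13, Gadd45b at -1.74, Hspb1 at -1.43, Hspa1a at -1.26, Mcl1 at -0.60 and the cholesterol enzyme Mvd at -0.68. The peptide precursor Trh was at -2.59. For Nfkbia the mean was 1.77 at 2 h and 1.93 at 6 h in ischemia, and 1.73 and 0.77 in sham. In 4 more genes the change at 2 h rests on signal at or below background, so that the fitted differences of -5.30 for Sele, -4.66 for Serpina3n, -3.60 for Ccl12 and -2.71 for the phospholipid flippase Atp8b1 are not measured sizes. Sele, Ccl12 and Atp8b1 were above background on 0 of the 6 arrays at 2 h, and Serpina3n on 1 of 3 in each group. Ccl4 was above background on 1 of 3 sham arrays at 2 h and on 0 at 6 h. Its difference is likewise a fitted value only. Of the 36, 22 to 29 stayed called when any 1 array was left out, 14 with the replicate block in the 12 arrays, 2 when arrays were scaled by their median, and 0 in limma without the 6 arrays of steep slope. Groups of 3 are too small for a test of single outlying arrays.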

How the results depend on the processing

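Every one of the 85 named genes called at 2 h kept its sign in each alternative analysis that could test it, and of 142 named genes not called, 70 changed sign in at least 1. For the called genes the sign could not change where only the threshold or the variance estimate differed. Nor could it when 1 array was left out, because their groups did not overlap. For ischemia against sham at 2 h the main count of 363 probes became 29 (28 higher, 1 lower) in the 6 arrays by themselves, 97 (all higher) with scaling by the array median, 172 (121 higher, 51 lower) without scaling, 642 with slide as a random block, 131 (123 higher, 8 lower) without the arrays of slope above 0.9 and 194 at a threshold of 0.01. Leaving out 1 array gave 225 to 335. With the 75th percentile over the tested probes, an alternative chosen after seeing the data, it was 382, 248 higher and 134 lower. For the change at 2 h against that at 6 h the main count of 400 became 225 with no filter on dim probes, 4 with the array median, 230 without scaling, 730 with slide as a random block, 0 without the steep arrays and 126 at 0.01, and 203 to 321 when 1 array was left out. The replicate numbers did not meet the condition for pairing: same-numbered deviations correlated at -0.426, -0.0515 and -0.121 at 2 h and at 0.535, 0.838 and -0.708 at 6 h. The replicate block over all 18 arrays called 318 probes at 2 h, and in the 6 arrays by themselves 0 in limma (1864 at an unadjusted p under 0.05); for the difference between the times, in its 12 arrays, it called 117. The causes of these shifts were not tested, and the smaller fits had fewer degrees of freedom.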

Other observations

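Several marker lists of cells outside the cortical parenchyma varied between rats of the same group. The choroid plexus transcript Ttr, which encodes the thyroid hormone carrier of cerebrospinal fluid, read -1.98, -1.62 and 3.92 in the ischemic rats, against 3.99, 0.80 and 5.28 in the sham rats. Both groups thus spanned more than 4 log2 units, they overlapped, and the change did not pass (adjusted p = 0.65). The potassium channel Kcnj13 of the same epithelium was at -1.02 ± 0.75 and also did not pass. Over the 4 tested markers of choroid plexus and ependyma the mean level ran from -2.07 to 0.59 in ischemia and from -0.69 to 1.47 in sham.

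Lymphocyte markers averaged -5.58 to -2.64 in ischemia and -3.25 to -1.93 in sham, with 0 of 5 called in limma, also 0 at an unadjusted p under 0.05, and the lowest value in ischemic replicate 1, the array of steepest slope. Only 1 of the 5 was above background on all 6 arrays, so these averages rest in part on signal at or below background. Neutrophil markers averaged -3.24 to -2.86 in ischemia and -3.81 to -2.99 in sham, with 0 of 6 called in limma (2 at an unadjusted p under 0.05), although the neutrophil attractants Cxcl1 and Cxcl2 rose. Of these 6 markers, 3 were above background on all 6 arrays, so the same limit holds. S100a8, a calcium-binding protein of neutrophils, was at 1.45 ± 0.39 (adjusted p = 0.11) and S100a9 at -0.30 ± 0.58. Red cell markers averaged -0.93 to -0.38 in ischemia and -1.23 to -0.49 in sham. Of 16 JAK-STAT and SOCS genes, the pathway of the erythropoietin receptor, 0 were called in limma (3 at an unadjusted p under 0.05): Epor was at -0.34 ± 0.34 and Pim3 at 0.42 ± 0.11.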
